A study of Mus musculus with 6 samples.

Results

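The genes described here encode subunits of the phagocyte NADPH oxidase and were taken by name: Cybb, Cyba, Ncf1, Ncf4 and the GTPase genes Rac1 and Rac2. All 6 were found among the 15139 rows of the expression table, and all 6 were among the 11365 genes tested. They were measured by messenger RNA sequencing of mouse bone marrow cells at week 1 of a culture that held IL3 at 10 ng/ml and SCF at 50 ng/ml, the cytokines interleukin 3 and stem cell factor. The knockout (KO) cells are labelled MxCre+v: Dnmt3a-/-, so without the DNA methyltransferase Dnmt3a, which sets new methyl marks; a further label calls them a knockdown. The wild-type (WT) cells are labelled MxCre+v: Dnmt3a+/+, so both genotypes carry Mx-Cre, a recombinase under an interferon-responsive promoter that is active in blood cells and also elsewhere. KO replicates 2 and 3 and WT replicates 1, 2 and 3 were analysed; KO replicate 1 was not analysed here. The culture and its cytokines were the same in both groups, and the labels give no age or sex of the mice.

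The phagocyte oxidase moves electrons from NADPH across a membrane onto oxygen and so makes superoxide, which neutrophils and macrophages use to kill microbes. Its catalytic core is a membrane pair, gp91phox (Cybb) with p22phox (Cyba), each of which needs the other to be stable. At rest the organizer p47phox (Ncf1) and p40phox (Ncf4) wait in the cytosol, and on stimulation they join the membrane pair together with a RAC GTPase loaded with GTP. Loss of the core or cytosolic phox subunits causes chronic granulomatous disease in humans. Mast cells, which grow in IL3 and SCF, and eosinophils and monocytes also make oxidants, and RAC GTPases are used by all cells to build actin structures.

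Levels are given as FPKM, fragments scaled to gene length and to all mapped fragments, and log2 changes are of FPKM + 1, KO over WT. Dnmt3a itself had 2.58 and 3.42 FPKM in the KO libraries, against 6.68, 9.99 and 9.04 FPKM in WT (log2 change -1.25 ± 0.17 SE, adjusted p of limma 0.00279). The labels do not say which exons were removed, so reads of the remaining exons may be counted in these levels. Xist, the RNA of the inactive X in females, reached 14.4 FPKM in WT replicate 2 and 15.3 FPKM in WT replicate 3, whereas both KO libraries and WT replicate 1 held at most 0.02 FPKM and between 12.98 and 14.8 FPKM of the Y-linked Ddx3y. Sex was therefore unequal between the genotypes, and values with sex as a covariate, which set the KO libraries against WT replicate 1, are given where they matter. The median log2 change of all 11365 genes tested was -0.04. Of the genes that passed, 41.2% were higher in KO, and 56.5% after upper-quartile scaling. Nothing in the labels says that libraries of 1 group came from separate animals or cultures. By its sex, WT replicate 1 came from an animal other than that of WT replicates 2 and 3, so the WT spread includes a difference between animals. For WT replicates 2 and 3, and for the KO libraries, separate animals are not known. The p-values thus speak of library-to-library spread, part of which may be technical.

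Of the 6 oxidase genes, 3 fell in KO cells (Cybb, Cyba and Ncf4) and none rose by limma at an adjusted p under 0.05, while of all genes tested 13% fell and 9.08% rose, 22.1% together. Ncf1, Rac1 and Rac2 did not pass, nor did they at an unadjusted p under 0.05. The median log2 change of the 6 was -0.32. The same 3 genes had both KO libraries below every WT library, and for the other 3 the groups overlapped; over all tested genes, 51.1% did not overlap in either direction and 30.8% were lower without overlap. The set is too small for its share of calls to be read as more than a count: among the 1876 tested genes with a group mean of at least 50 FPKM, as all 6 have, 33.3% passed and 19.8% were lower in KO. In bulk cultures, fewer cells of a type and less RNA per cell cannot be told apart.

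**Figure D1:**
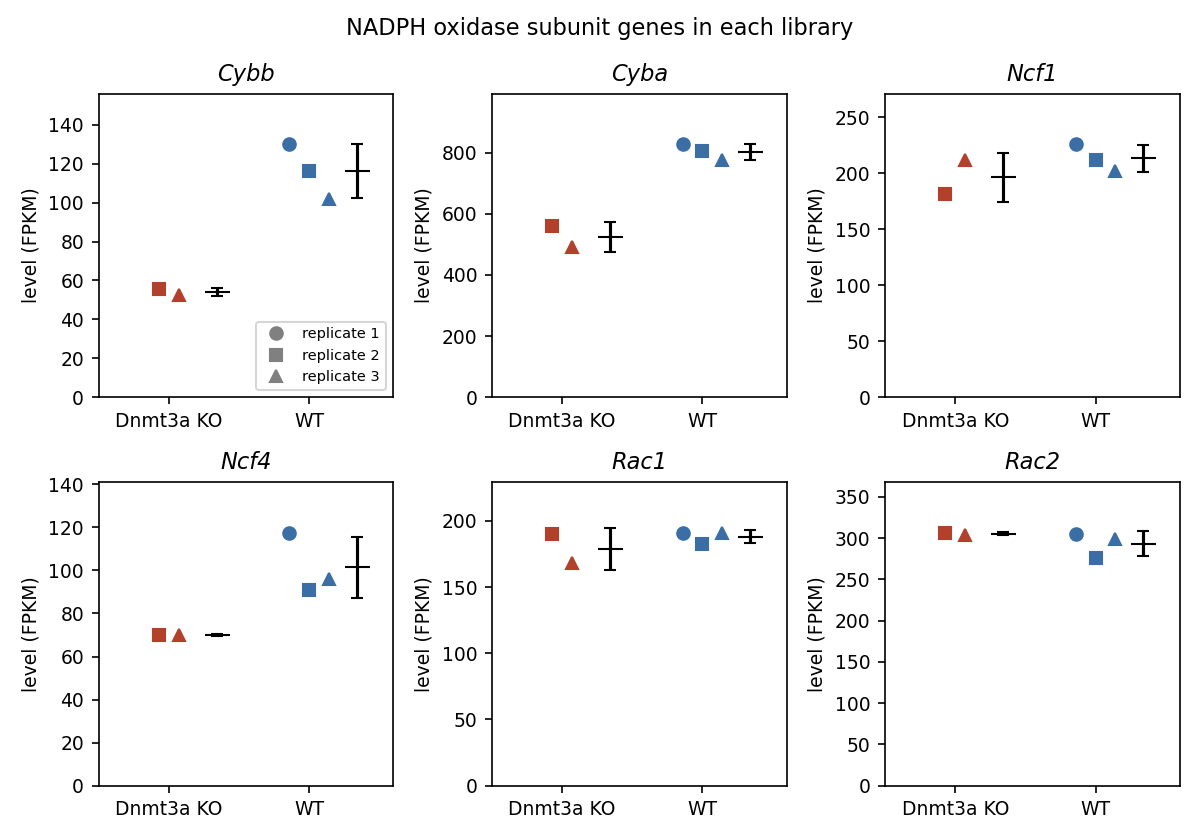
Level of each oxidase gene in FPKM on axes that start at 0, by library, with KO left of WT; symbols mark the replicate number and bars the group mean and SD. Both KO libraries lie below all WT libraries for Cybb, Cyba and Ncf4, while the groups overlap for Ncf1, Rac1 and Rac2.

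Cybb (gene 13058), the electron-carrying subunit, was the gene of the set with the largest fall. It lies on the minus strand of chromosome X from 9435252 to 9487766 in GRCm38.p6. Its level was 55.5 and 52.5 FPKM in KO replicates 2 and 3, against 130.1, 117 and 102 FPKM in WT replicates 1, 2 and 3. Both KO libraries held about the same level, and the lowest WT library was well above them. The mean was 54.0 ± 2.13 FPKM in KO (SD, n = 2) and 116 ± 14.0 FPKM in WT (SD, n = 3), a ratio of 0.465; the log2 change was -1.08 ± 0.11 (SE, adjusted p of limma 0.000747). Cybb is X-linked, and the male library WT replicate 1 had the highest level of the WT group. With sex as a covariate the log2 change was -1.25 (adjusted p = 0.00277), and the fall passed under every one of 16 other settings.

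Cyba (gene 13057), the membrane partner that docks p47phox through its proline-rich tail, was the most abundant of the set. It lies on the minus strand of chromosome 8 from 122424771 to 122432940, where the annotation also holds the overlapping gene model Gm20388 on the other strand. Cyba had 559 and 491 FPKM in the KO libraries, against 828, 804 and 774 FPKM in WT. The groups did not overlap, and the WT libraries lay close together. The mean was 525 ± 48.5 FPKM in KO and 802 ± 26.9 FPKM in WT (SD), and the log2 change was -0.61 ± 0.09 (SE, adjusted p of limma 0.00380). Sex as a covariate gave -0.66 (adjusted p = 0.0286). The labels and headers do not say whether counting used the strand; if it did not, reads from the other strand of an overlap count for both genes.

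Within the membrane pair, Cybb was lower relative to Cyba in KO. The FPKM ratio of Cybb to Cyba was 0.0993 and 0.107 in the KO libraries, against 0.157, 0.145 and 0.132 in WT, with means of 0.103 ± 0.00547 and 0.145 ± 0.0126 (SD). Every KO library was below every WT library. No test was made of this ratio; an exact permutation test of 2 KO against 3 WT libraries gives a two-sided p of 0.2 at the least.

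The RefSeq promoter table of GRCm38.p6 held 3 of the 6 genes: Cybb and Cyba, which fell, and Ncf1, which did not pass. Their 250 bases upstream of the annotated start are shown with each CG, the dinucleotide at which Dnmt3a acts, in capitals; methylation itself was not measured. All lie on the minus strand and are written 5′ to 3′, at chrX:9469325-9469574, chr8:122432941-122433190 and chr5:134229626-134229875, and none overlaps a GENCODE exon of its own gene. The Cybb window lies within its RefSeq gene span, and the 3′ end of the Ncf1 window reaches into that of Ncf1.
Cybb: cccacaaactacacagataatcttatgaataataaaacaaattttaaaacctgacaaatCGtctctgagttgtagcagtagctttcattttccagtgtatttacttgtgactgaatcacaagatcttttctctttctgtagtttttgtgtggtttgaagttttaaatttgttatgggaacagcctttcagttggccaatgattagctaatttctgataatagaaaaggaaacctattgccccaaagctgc
Cyba: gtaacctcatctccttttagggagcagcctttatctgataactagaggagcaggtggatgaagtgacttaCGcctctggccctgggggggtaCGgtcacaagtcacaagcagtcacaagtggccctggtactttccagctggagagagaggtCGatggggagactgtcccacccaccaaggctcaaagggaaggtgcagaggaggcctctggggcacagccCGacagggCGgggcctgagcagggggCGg
Ncf1: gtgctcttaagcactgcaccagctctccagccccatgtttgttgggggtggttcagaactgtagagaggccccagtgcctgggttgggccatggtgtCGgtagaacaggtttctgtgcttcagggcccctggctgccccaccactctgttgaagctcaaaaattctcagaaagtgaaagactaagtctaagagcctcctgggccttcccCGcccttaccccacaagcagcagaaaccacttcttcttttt

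The windows of the genes that fell were unlike each other. Cybb held 1 CG and 34.0% G and C, Cyba 6 CG and 60.0%, and Ncf1 2 CG and 54.4%. Of 32851 promoter windows of that length in the table, 18.8% held at most 1 CG, 53.7% at most 6 and 29.0% at most 2, with a median of 6. On either strand, CCAAT was found in Cybb alone of these 3 windows, 56 bases before the start, and is in 33.8% of all windows. GGGCGG was found in Cyba, at 2 places, and in Ncf1, at 1 place, and is in 32.7% of all windows. TATAAA, in 12.4% of windows, and GAGGAA, a core bound by the myeloid factor PU.1 and in 23.3% of windows, were in none of the 3. GAGGAA lay on the opposite strand of Cybb just past the annotated start, from base 10 of the transcript on, at chrX:9469302-9469323, where the site reads gttttcatTTCCTCatcagaag with the match in capitals. With the first 50 transcribed bases added to the windows, 28.3% of promoters hold GAGGAA on either strand.

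Ncf4 (gene 17972), which encodes p40phox, the subunit that binds the lipid PI3P on phagosomes, also fell. It lies on the plus strand of chromosome 15 from 78244164 to 78262582. Its level was 69.8 and 70.2 FPKM in the KO libraries, against 118, 90.7 and 96.1 FPKM in WT. The KO libraries were nearly equal, and WT replicate 1 stood above the other WT libraries. The mean was 70.0 ± 0.262 FPKM in KO and 101 ± 14.2 FPKM in WT (SD), and the log2 change was -0.52 ± 0.11 (SE, adjusted p of limma 0.0174). The call was lost when KO replicate 2 or KO replicate 3 was left out, at nearly the same size (log2 change -0.52 each, adjusted p = 0.0552 and 0.0680). With sex as a covariate the log2 change was -0.74 (adjusted p = 0.00802), and without WT replicate 1 it was -0.41.

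Ncf1 (gene 17969), the organizer p47phox, did not pass. It lies on the minus strand of chromosome 5 from 134220053 to 134229628 and overlaps Gtf2ird2 on the other strand. Its level was 181 and 212 FPKM in the KO libraries, against 226, 212 and 202 FPKM in WT. KO replicate 3 lay within the WT range and KO replicate 2 below it. The log2 change was -0.12 ± 0.09 (SE; limma adjusted p = 0.412), with a 95% interval from -0.34 to 0.10.

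Relative to the organizer, Cybb and Ncf4 were lower in KO; these ratios were chosen after the values were seen and have no test. Cybb stood at 0.306 and 0.248 of the Ncf1 FPKM in the KO libraries, against 0.575, 0.550 and 0.504 in WT. Ncf4 stood at 0.385 and 0.331 of Ncf1 in KO, against 0.520, 0.428 and 0.475 in WT. For both ratios the groups did not overlap.

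The GTPases did not pass. Rac2 (gene 19354; chromosome 15 from 78559169 to 78572783, minus strand), the RAC found mainly in blood cells and the main one of the neutrophil oxidase, had 307 and 304 FPKM in the KO libraries, against 305, 276 and 299 FPKM in WT. The groups overlapped, with WT replicate 2 the lowest library. Its log2 change was 0.06 ± 0.08 (SE; limma adjusted p = 0.636), with a 95% interval from -0.12 to 0.24. Rac1 (gene 19353; chromosome 5 from 143505481 to 143528031, minus strand), which is expressed in nearly all cells, had 190.2 and 168 FPKM in KO, against 191, 183 and 191 FPKM in WT. KO replicate 2 lay within the WT range and KO replicate 3 below it. Its log2 change was -0.07 ± 0.08 (adjusted p = 0.568; interval -0.26 to 0.12) and turned positive under upper-quartile scaling (0.019), quantile normalization (0.017) and without KO replicate 3 (0.016). Rac1 overlaps Daglb and a further gene model on the other strand.

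Both RAC genes together gave 497 and 472 FPKM in the KO libraries, against 495, 459 and 490.3 FPKM in WT. Rac2 made up 61.7% and 64.4% of that sum in KO, against 61.5%, 60.2% and 61.0% in WT, with means of 63.1% ± 1.91 and 60.9% ± 0.640 (SD). The difference of 2.17 percentage points was 3.52 without KO replicate 2 and 0.821 without KO replicate 3, so its size rests on which KO library is kept. Whether the change of Rac2 differs from that of Cybb was not tested. As a description chosen after the values were seen, Cybb stood at 0.181 and 0.173 of the Rac2 FPKM in KO, against 0.427, 0.422 and 0.342 in WT.

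**Figure D2:**
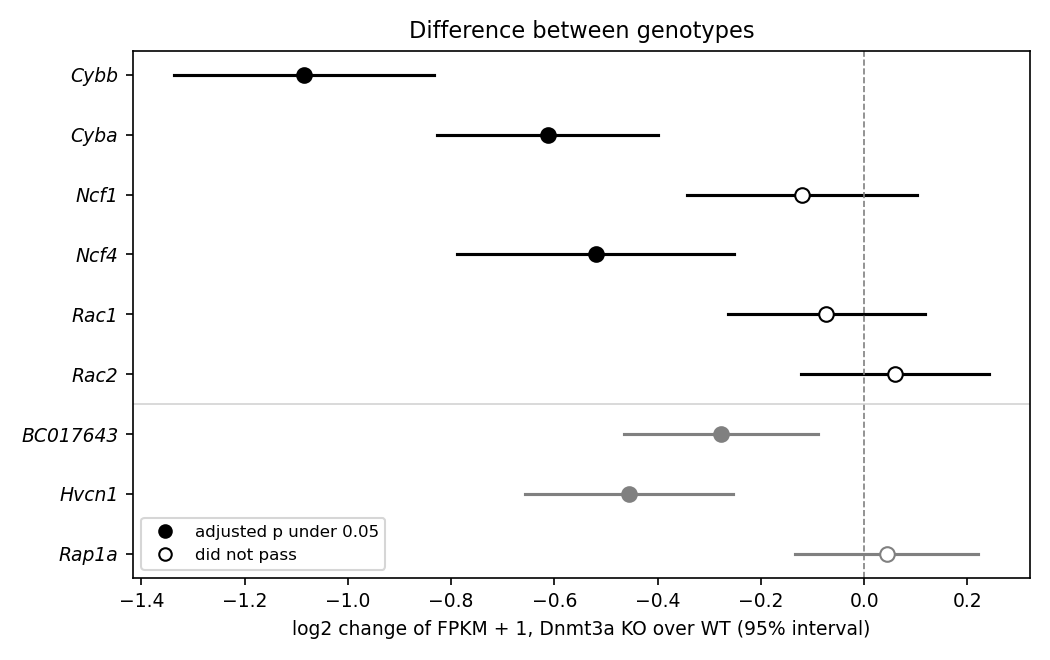
Log2 change of FPKM + 1, KO over WT, with 95% intervals from limma, for the 6 oxidase genes (black) and for 3 related genes (grey). Filled symbols passed at an adjusted p under 0.05; the interval of Cybb, from -1.34 to -0.83, lies lowest, and those of Ncf1, Rac1, Rac2 and Rap1a include 0.

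FPKM are per length, so levels can be set in order within a genotype. In KO the order of means was Cyba, Rac2, Ncf1, Rac1, Ncf4 and Cybb, and in WT it was Cyba, Rac2, Ncf1, Rac1, Cybb and Ncf4. Cybb and Ncf4 thus stood in opposite order: Cybb was below Ncf4 in both KO libraries and above it in each of the 3 WT libraries. The ranges of Cybb and Ncf4 overlapped in WT but not in KO, and those of Ncf1 and Rac1 overlapped in KO but not in WT. No other neighbours in either order overlapped. All 6 were high among the tested genes, with group means at the 86.6th percentile (Cybb) to the 98.4th (Cyba) in KO and at the 92.5th (Ncf4) to the 98.8th (Cyba) in WT.

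Genes with the profile most like each gene that fell were sought among 6002 genes with a mean of at least 10 FPKM, by the distance between log2 profiles centred over the 5 libraries. Nearest to Cybb were the SRC family kinase gene Fgr (distance 0.0897, log2 change -1.16), Ugt1a7c (0.109, -1.11), whose reads can be shared with the other Ugt1a genes of its locus, and the carboxypeptidase gene Prcp (0.119, -1.07). Fgr had 11.7 and 11.1 FPKM in KO, against 29.9, 26.5 and 23.9 FPKM in WT. It followed Cybb in order across the libraries, which its choice by profile over these same libraries favours. Nearest to Cyba were the peroxisomal thiolase gene Acaa1a (0.0549, -0.57), Pcbd2 (0.0670, -0.57) and Uap1l1 (0.0705, -0.60). Nearest to Ncf4 were the mitochondrial protease gene Htra2 (0.0966, -0.60), the NAD kinase gene Nadk (0.0997, -0.45) and Tmem38b (0.115, -0.62). Htra2 lost its call without KO replicate 3 (adjusted p = 0.0530) and Nadk without KO replicate 2 or 3 (0.0517 and 0.0532).

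**Figure D3:**
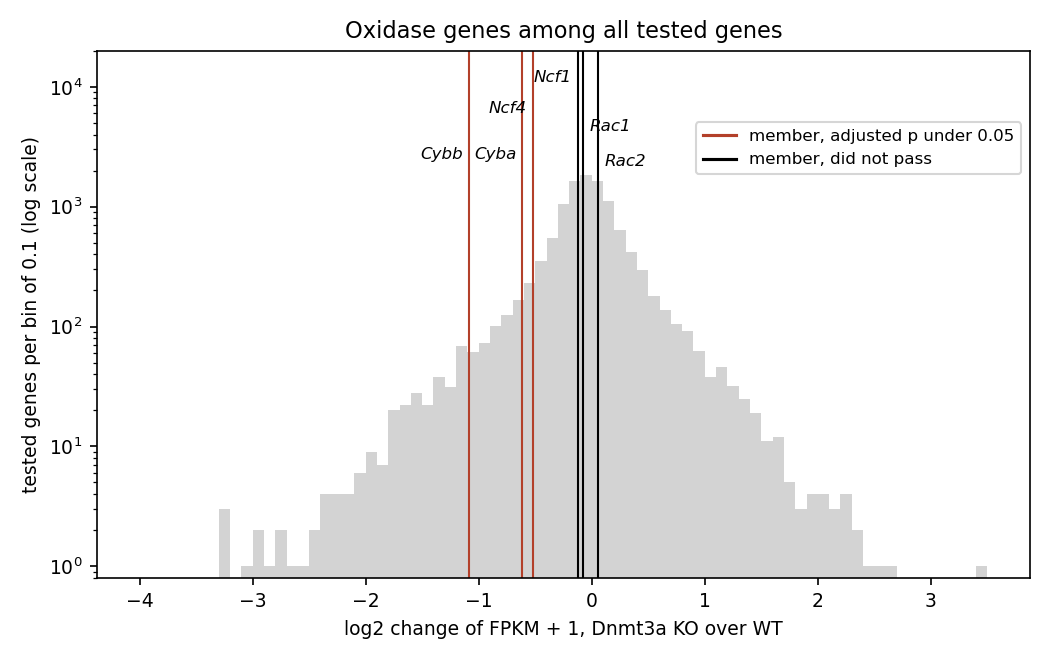
Number of the 11365 tested genes per 0.1 of log2 change (FPKM + 1, KO over WT), on a log scale, with vertical lines at the 6 oxidase genes (red where the adjusted p was under 0.05). Cybb, at -1.08, lies in the lower tail, Cyba and Ncf4 on its shoulder, and Ncf1, Rac1 and Rac2 near the peak.

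Of 3 other genes of the oxidase and its surroundings, Hvcn1 and BC017643 fell and Rap1a did not pass. The proton channel gene Hvcn1, which balances the charge that the oxidase moves, had 54.8 and 64.4 FPKM in KO, against 81.3, 80.8 and 83.5 FPKM in WT (log2 change -0.46 ± 0.09, limma adjusted p = 0.00952). BC017643, named Cybc1 in RefSeq and known as the chaperone of the membrane pair, had 26.3 and 25.3 FPKM in KO, against 32.0, 33.0 and 29.4 FPKM in WT (log2 change -0.28 ± 0.08, limma adjusted p = 0.0470). The small GTPase gene Rap1a, whose product was found bound to the membrane pair, did not pass (log2 change 0.04, adjusted p 0.727). With sex as a covariate neither call held (adjusted p = 0.0756 for Hvcn1 and 0.176 for BC017643), at log2 changes of -0.45 and -0.30 and unadjusted p of 0.0112 and 0.0426. BC017643 lost its call under 13 of 16 alternatives: without any 1 of the 5 libraries (0.0622 to 0.162), under median-of-ratios, upper-quartile, total and quantile scaling (0.0840 to 0.157), with the replicate block (0.130), with the sex term, without the filter on low values (0.0535) and without the mean-variance trend (0.0759). The homologue genes Nox1, Nox4 and Noxo1 stayed at or under 0.57 FPKM in every library and were not tested.

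Regulators of RAC moved in both directions. Of 22 tested, 3 rose and 6 fell, with a median of -0.05 that was 0.07 without KO replicate 2. Among the exchange factors, which load RAC with GTP, Vav3, Vav2, Dock1 and Prex1, the last a major one of neutrophils, fell, with log2 changes of -1.01 ± 0.10, -0.996 ± 0.13, -0.64 ± 0.11 and -0.51 ± 0.09 (SE). Tiam2 rose (0.72 ± 0.09). The adjusted p of limma for these 5 lay between 0.000850 and 0.00811. Vav1, the exchange factor of blood cells, did not pass (log2 change -0.21, adjusted p of limma 0.0898), nor did Dock2 (-0.06). Vav3, Vav2 and Dock1 were low, with means of 2.67, 2.2 and 2.37 FPKM in KO, against 6.41, 5.40 and 4.24 FPKM in WT. Vav1 and Dock2 had means of 41.2 and 43.3 FPKM in KO, against 47.6 and 44.9 FPKM in WT. When sex was added as a term, the calls of Dock1 and Prex1 were lost (adjusted p = 0.0702 and 0.0854).

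Kinases and lipid enzymes that act on oxidase assembly were split. Of 11 tested, 2 rose and 3 fell (median -0.14). The protein kinase C genes Prkcb and Prkca, whose products phosphorylate p47phox, rose, with log2 changes of 0.86 ± 0.07 and 0.81 ± 0.12, and Prkcd, the isoform named for the same step in human monocytes, fell (-0.41 ± 0.07). Prkcb had 59.9 and 59.7 FPKM in KO, against 33.1, 30.6 and 33.5 FPKM in WT. Prkcd stayed the most abundant of these 3, with 124 and 133 FPKM in KO, against 167, 170.0 and 175 FPKM in WT. Pak1, a kinase switched on by RAC, fell (-1.17 ± 0.16), as did Syk, which acts below Fc receptors and integrins (-0.31 ± 0.07). The adjusted p of limma for these 5 lay between 0.000462 and 0.0265. Pak1 had means of 4.30 FPKM in KO and 11.0 FPKM in WT. The more abundant Pak2, with 44.5 and 45.2 FPKM, did not pass (-0.02). The calls of Prkcd (0.0848) and Syk (0.150) were lost with the sex term. Syk was also lost without KO replicate 2 (0.0554), without any 1 of the WT libraries (0.0750 to 0.101), under upper-quartile, total and quantile scaling (0.0749, 0.0760 and 0.0870), with the replicate block (0.0943) and without the mean-variance trend (0.0510).

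Enzymes that supply NADPH, the substrate, were mostly lower. Of 9 tested, 6 fell and 1 rose (median -0.42). Idh1 (log2 change -0.78 ± 0.09) fell, as did G6pdx (-0.48 ± 0.08) and Pgd (-0.59 ± 0.07), which form NADPH in the pentose phosphate pathway. Pgd had 158 and 158 FPKM in KO, against 247, 236 and 231 FPKM in WT. Me1 rose (0.79 ± 0.18) at 2.04 and 3.35 FPKM in KO, against 0.90, 1.18 and 1.25 FPKM in WT. This call was lost with the sex term (adjusted p of limma 0.0591), without KO replicate 3 (0.118) and without WT replicate 1 or 2 (0.0522 and 0.0514). Of 21 antioxidant genes, among them enzymes that remove superoxide and peroxide, 1 rose and 6 fell (median -0.17). The number that fell was 10 without KO replicate 2, 3 without KO replicate 3 or WT replicate 2, and 4 without WT replicate 1 or 3. Hmox1, heme oxygenase, fell (log2 change -1.16 ± 0.16), and the endoplasmic reticulum peroxiredoxin gene Prdx4 rose (1.15 ± 0.07).

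Of 13 tested transcription factor genes known to act on oxidase genes, 7 fell and 4 rose (median -0.39). The 4 that rose were Satb1, Elf1, Cux1 and Myb, with log2 changes of 0.49, 0.38, 0.37 and 0.31. None of the 13 rose without KO replicate 3, and 1 rose without any 1 of the WT libraries. Irf8, which with PU.1 drives Cybb, fell (log2 change -1.87 ± 0.17), with 4.13 and 2.57 FPKM in KO, against 13.6, 16.9 and 13.6 FPKM in WT. Spi1, which encodes PU.1, had 161 and 161 FPKM in KO, against 252, 236 and 231 FPKM in WT, and its log2 change was -0.57 ± 0.07 (adjusted p of limma 0.00202). Cebpa (-0.65 ± 0.08) and Cebpd (-0.85 ± 0.20) fell, the last lost without KO replicate 3 (adjusted p = 0.124) or WT replicate 2 (0.0580). Cebpe, a factor of late granulocytes, did not pass (log2 change -0.13, adjusted p 0.476); it passed without KO replicate 3 (-0.32, 0.0344) and was 0.06 without KO replicate 2. Set beside Spi1, Cybb stood at 0.346 and 0.326 of its FPKM in KO, against 0.517, 0.495 and 0.443 in WT, a ratio chosen after the values were seen.

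With sex as a covariate, WT replicate 1 was the only WT library of the KO libraries' sex, and fewer of all genes tested passed. The counts of these related lists shrank as well. Given as those higher and those lower in KO, they were 1 and 2 of 22 RAC regulators, 2 and 1 of 11 kinases and lipid enzymes, none and 5 of 9 NADPH enzymes, 1 and 3 of 21 antioxidant genes, and none and 5 of 13 transcription factors. After upper-quartile scaling the RAC regulators had 6 higher and 4 lower, with a median of 0.05.

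Most monocyte, macrophage and neutrophil markers were lower in KO, as were Cybb, Cyba and Ncf4, while most mast cell markers were higher. The monocyte and macrophage markers Adgre1 (log2 change -0.05) and Ly6c2 (-0.04) did not pass. Neither did the neutrophil markers Cxcr2 (-0.07) and Mmp9 (-0.47). Among the mast cell markers, Hdc (-0.10), Cma1 (0.35) and Mcpt4 (0.34) did not pass. Of 13 monocyte and macrophage markers, 11 fell and none rose, at a median log2 change of -1.30. Their sum over all 13 was 2770 to 2955 FPKM in KO, against 6483 to 8386 FPKM in WT. The largest part of this sum was Lyz2 alone, with 1587 and 1311 FPKM in KO, against 6477, 5178 and 4523 FPKM in WT. The sum thus mainly follows that gene. Of 14 neutrophil markers, 12 fell and none rose, with a median of -0.86. Their sum was 13299 to 17269 FPKM in KO, against 23279 to 34300 FPKM in WT, and S100a8 and S100a9 made up most of it. After upper-quartile scaling 7 of the 14 fell. Without KO replicate 3 or WT replicate 2 it was 6, and without WT replicate 1 it was 8. Of 12 mast cell markers, 9 rose and none fell, with a median of 1.05. Their sum was 28148 to 32324 FPKM in KO, against 11894 to 13651 FPKM in WT, and Cpa3 made up most of it. Of 6 basophil markers 4 rose (Gzmb, Cd200r3, Cyp11a1 and Il4), with a median of 0.62. The other basophil markers, the protease genes Mcpt8 (log2 change -0.22) and Prss34 (-0.06), did not pass, and their groups overlapped. Of 8 eosinophil markers 1 rose (median 0.08), but none without KO replicate 3 or WT replicate 2. No marker in the table was at 0 in all libraries. Whether the cell types of the cultures differed was not measured. Any part of such a difference in the fall of the 3 oxidase genes was not tested.

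The monocyte and neutrophil markers named next have the largest changes of their lists, so by that choice they exceed Cybb, Cyba and Ncf4. The lists as a whole were not uniform in this. The median of the neutrophil markers (-0.86) was smaller in size than the change of Cybb (-1.08). The median of the monocyte and macrophage markers (-1.30) was larger. These differences were not tested. The log2 change was -2.10 for Trem2, -1.89 for lysozyme (Lyz2), -1.80 for Klf4 and -1.79 for Csf1r, the receptor of macrophage colony-stimulating factor. It was -2.23 for neutrophil elastase (Elane) and -1.51 for myeloperoxidase (Mpo), which uses the peroxide that follows from the oxidase. Set beside Csf1r, Cybb stood at 1.81 and 2.07 times its FPKM in KO, against 1.24, 1.15 and 1.13 times in WT, so the ratio was higher in both KO libraries. Set beside Cd68, a lysosomal protein of macrophages, Cybb stood at 1.21 and 1.16 times its FPKM in KO, against 1.24, 0.954 and 0.996 times in WT, and the groups overlapped. Both ratios were chosen after the values were seen and were not tested. Cpa3, the carboxypeptidase of mast cell granules, rose (1.39).

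**Figure D4:**
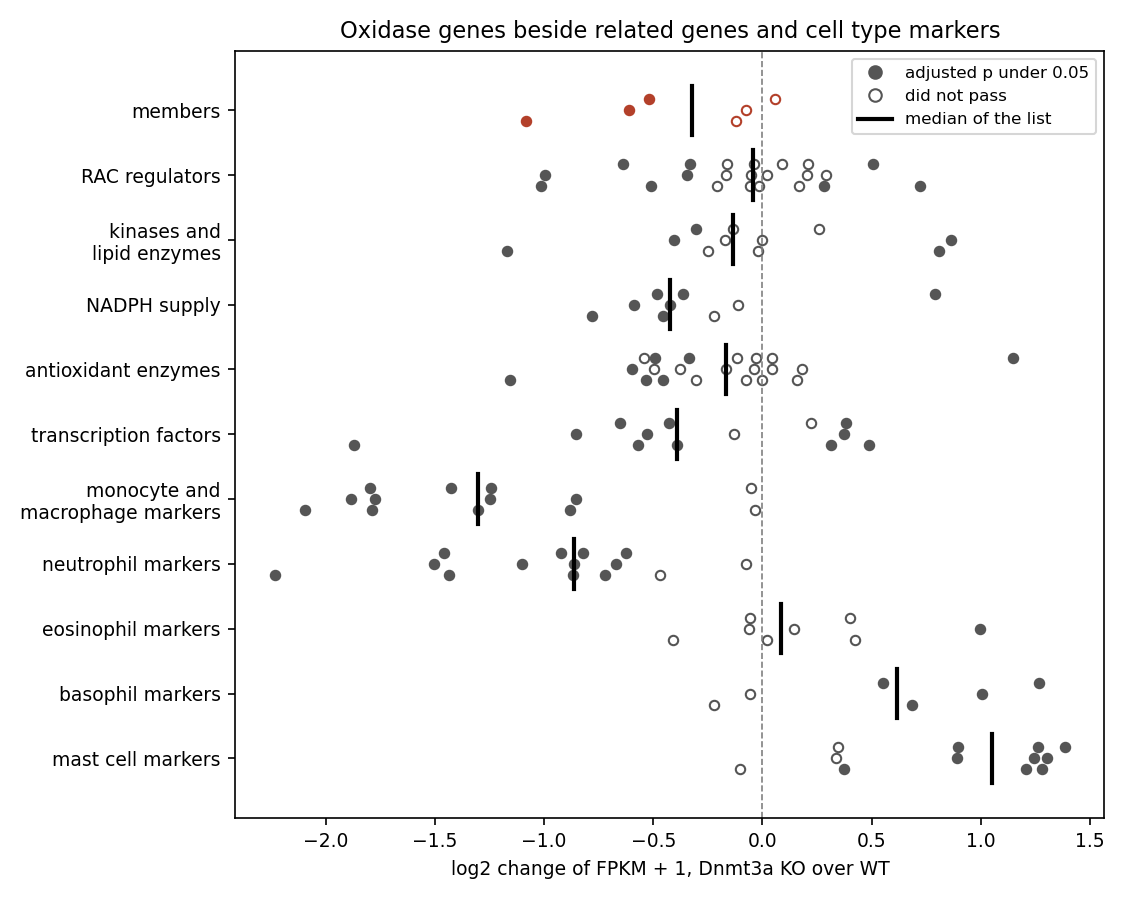
Log2 change (FPKM + 1, KO over WT) of each tested gene, 1 row per gene list, with the 6 oxidase genes in red at the top; filled symbols passed at an adjusted p under 0.05, bars are list medians and vertical offsets only separate points. The oxidase genes, with a median of -0.32, lie between the monocyte and macrophage markers (-1.30) and the mast cell markers (1.05).

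The deposited tests of the study can be set beside these calls. In the authors' deposited table the signed fold was -2.15 for Cybb, -1.53 for Cyba and -1.45 for Ncf4, a negative value meaning lower in KO. The unadjusted p-values in the authors' deposited table were 0.00956 for Cybb, 0.00337 for Cyba and 0.0589 for Ncf4. The adjusted p of a second test in the authors' deposited table was 0.515 for Cybb, 0.271 for Cyba and 0.989 for Ncf4, so none of the 6 genes passed there, while Dnmt3a did (1.2e-09) and 922 of 15139 rows did. The headers hold a LOGCPM column and the processing notes list edgeR, but neither states what that second test was run on. The calls on Cybb, Cyba and Ncf4 therefore come from the fit of log2 FPKM, and that second test does not share them.

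**Figure D5:**
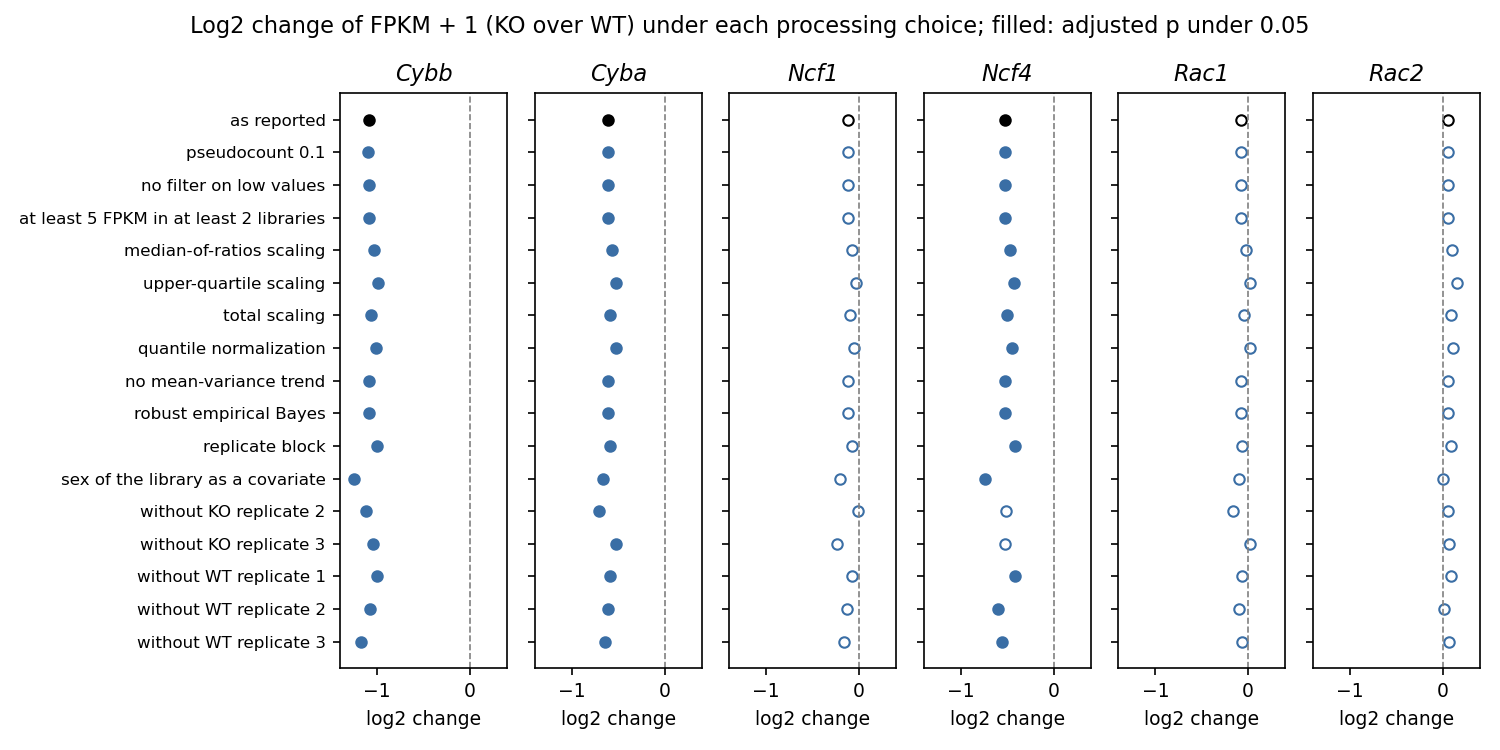
Log2 change (FPKM + 1, KO over WT) of each oxidase gene as reported (black) and under 16 other processing choices (blue); filled symbols passed at an adjusted p under 0.05. Cybb and Cyba passed under all 16, Ncf4 missed without KO replicate 2 or 3, and Ncf1, Rac1 and Rac2 passed under none.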

How the data were processed

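Per the labels' protocols, RNA was taken at week 1 of culture, mRNA was selected with oligo(dT), and libraries were run on an Illumina HiSeq. HISAT, edgeR, StringTie 1.2.1 and the build mm10 are listed in the submitters' processing notes, without their roles. The authors deposited an FPKM column for each library, with 2 decimals. Per the file headers they also gave a signed fold (a score), p-values, a log fold change (a score, not used) and LOGCPM (not used). Depth is unknown: low FPKM did not fall on whole multiples of 1 fragment (scores of 0.204 to 0.405, where 1 means all do). FPKM summed to 560387 to 604368 per library.

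The members and lists were chosen with earlier results of these data known. limma 3.58.1 in R 4.3.3 was run on log2(FPKM + 1) over the 11365 genes with at least 1 FPKM in at least 2 libraries, with a mean-variance trend, no term but genotype and 3 degrees of freedom left for the spread. Benjamini-Hochberg adjustment ran over all genes tested, with a threshold of 0.05. The pseudocount understates changes of low genes. The procedure was tested on simulated data. Genes named outside the set are list members past the threshold with the largest changes, textbook members that did not pass, and the 3 nearest profiles; some related genes are not reported here. Gene positions and promoter sequences are from RefSeq, strands, exons and overlaps from GENCODE M21, all on GRCm38.p6. Alternatives were scaling, filters, pseudocount, variance model, sex, replicate block and leaving out libraries.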

Additional observations from a re-analysis of the deposited data

How the results depend on the processing

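Cybb and Cyba kept their direction and call under all 16 alternatives, with log2 changes between -1.25 and -0.99 and between -0.71 and -0.52. Ncf4 kept both under 14, and leaving out libraries gave -0.60 to -0.41, with the call lost without KO replicate 2 or 3. Ncf1 and Rac2 passed under none and kept their direction (-0.23 to -0.01 and 0.00385 to 0.15). Rac1 turned to 0.019 under upper-quartile scaling and 0.017 under quantile normalization, and lay between -0.163 and 0.016 with libraries left out. The number of genes changed was 2507 as reported, 1312 with sex as a covariate, and 1623 (without WT replicate 2) to 2659 with libraries left out; the cause was not tested. The difference in the Rac2 share lay between 0.821 and 3.52 percentage points. With libraries left out, Rap1a lay between -0.037 and 0.124 and Cebpe between -0.319 and 0.063. With the replicate block, which has 1 residual degree of freedom, 2058 genes and the same 3 of the 6 passed (Cybb -1.001, Cyba -0.59, Ncf4 -0.41). KO replicate 1 was not analysed, so WT replicate 1 was alone in its block. These log2 changes are therefore the same as those without WT replicate 1, and the block gives no separate view of their size. Same-numbered libraries correlated at -0.03 and 0.10 in their deviations from the group means, and differently numbered ones at -0.11 to 0.11. With 2 KO libraries the deviation of each mirrors the other, so these values cannot show or exclude a pairing. The labels do not tie the numbers to a shared day. FPKM carry no depth, so counting error could not be given.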
